A study of Sus scrofa with 80 samples.

Results

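Genes of the neuronal cytoskeleton were followed through postnatal maturation in 3 brain regions of the Göttingen minipig. The set was defined by name as DCX, GAP43, STMN1, STMN2, TUBB2B, TUBB3, NEFL, NEFM, NEFH and MAPT, and 7 of these 10 genes carry a row under their own name among the 23736 genes of the array: DCX, STMN2, TUBB2B, TUBB3, NEFL, NEFM and MAPT. GAP43 and STMN1 were found only under a transcript identifier and are described apart from the 7, and NEFH was not found. The samples are untreated tissue of one minipig breed, taken from cerebellum, hypothalamus and cerebral cortex. Both sexes are present once at 1 and 4 weeks and at 2 and 4 months of age, and a single male of 2 years completes the 9 samples per region. Liver, kidney, spleen and bone marrow were sampled in the same way, testis in 5 males and ovary in 4 females, and these 45 samples serve as background.

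The labels do not name the animals, so samples of one age and sex may be from one pig, and the p-values measure the spread between these samples. The 2-year male was raised partly at another site, on other feed and with another preparation of pentobarbital, and its arrays lie on 2 slides that hold no younger sample. Its age therefore cannot be told apart from animal, husbandry and slide, and it was kept out of the tests. The values are quantile-normalized log2 intensities of a one-color array. Each probe has its own brightness, so a level was compared between samples of one gene and never between genes. The detection limit, the 95th percentile of the negative control spots of an array, had a median of 2.89 log2 units, and the number of arrays rather than a read depth limits the precision.

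The neuronal cytoskeleton consists of microtubules and neurofilaments. Doublecortin, the product of DCX, binds and stabilizes microtubules in migrating and newly formed neurons and is widely used as a marker of them. TUBB2B and TUBB3 encode beta-tubulins of neurons, the stathmins STMN1 and STMN2 bind tubulin dimers and promote disassembly of microtubules, GAP43 is a protein of the growth cone, and MAPT encodes tau, the microtubule-associated protein of axons. NEFL and NEFM encode the light and medium chains of the neurofilament, which fills mature axons. During brain maturation, genes of migrating and growing neurons are known to give way to those of mature axons and synapses. In whole tissue, fewer cells of a type and less RNA per cell cannot be told apart.

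The tissue labels were compared with marker genes of each region. Of 13 cerebellar neuron markers, 11 had their highest median in cerebellum, and in 9 of them the lowest cerebellar sample lay above every sample of the other regions. Of 9 cortical markers, 8 had their highest median in cerebral cortex, and in 6 of them the lowest cortical sample lay above every sample of the other regions. The hypothalamic markers did not set the samples labelled hypothalamus apart: 4 of 13 had their highest median there, and none was above both other regions in every sample. The vasopressin gene AVP exceeded the detection limit in 2 of 9 hypothalamus samples and the transcription factor SIM1 in 1 of 9. The median of POMC was 9.74 in hypothalamus, 9.86 in cerebellum and 9.60 in cerebral cortex. The name hypothalamus is used below as the labels give it.

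In 2 hypothalamus samples, the 4-week male and the 4-month male, several of the genes stood apart from the other samples of the region up to 4 months. GAP43 was 11.24 and 11.22 in them against 12.14 to 13.06 in the others, and TUBB3 was 6.92 and 6.74 against 7.29 to 8.15. NEFM was 10.96 and 11.96 in them and between 9.91 and 10.77 in the others. The mean of 4 pan-neuronal markers was 8.82 and 8.86 in these 2 samples, at the lower end of the region, with ELAVL3 not above the detection limit in any hypothalamus sample. The mean of 12 myelin markers in them was 7.51 and 7.15, the highest and the lowest up to 4 months. The hypothalamus age differences of DCX, NEFM, MAPT, STMN1 and GAP43 and the slope of TUBB3 are therefore also given without both samples. The list counts and the comparisons between regions include both samples.

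DCX was the member whose age trend passed the threshold, in cerebellum and cerebral cortex. It was also lower at 2 and 4 months than at 1 and 4 weeks in hypothalamus, where no test of it passed. In cerebellum its log2 value was 7.58 in the male and 8.13 in the female at 1 week, 7.07 and 7.03 at 4 weeks, 6.19 and 6.49 at 2 months, and 5.31 and 4.80 at 4 months. The 2-year male had 4.51. Each age lay below the age before it, in both sexes and without overlap, and the mean at 4 months was 6.98-fold lower than at 1 week. The drop between consecutive ages was 0.81 from 1 week to 4 weeks, 0.71 from 4 weeks to 2 months and 1.29 from 2 months to 4 months on the log2 scale, where these sizes are differences of means of 2 samples.

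**Figure D1:**
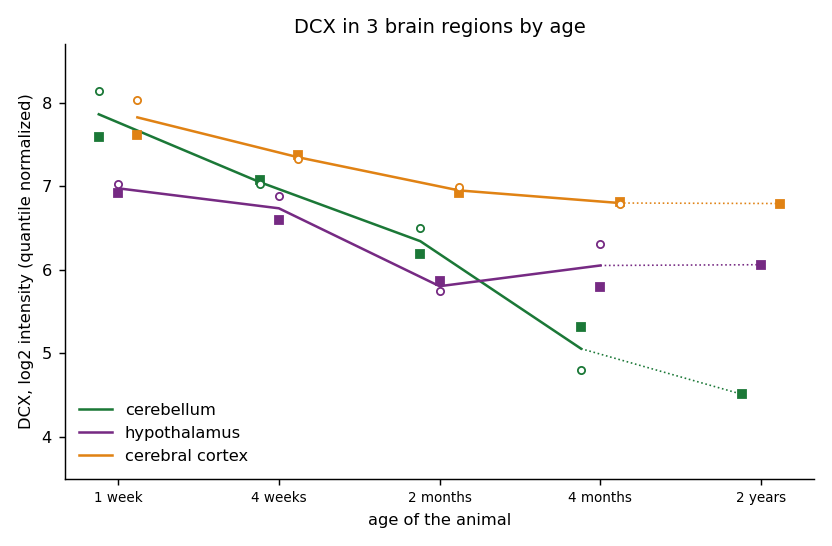
DCX by age in cerebellum, hypothalamus and cerebral cortex, as log2 intensity of every sample (filled squares, males; open circles, females), with solid lines through the means of 1 week to 4 months and dotted lines to the 2-year male. Cerebellum goes from 7.58 and 8.13 at 1 week to 5.31 and 4.80 at 4 months, and cerebral cortex levels off at 6.79 and 6.80.

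The age trend, a slope per step over the 4 ages up to 4 months, was -0.91 ± 0.08 (SE, n = 8) for cerebellar DCX, with a limma adjusted p of 0.000425. It was the 12th smallest p-value among all genes with a negative slope. The slope passed the threshold of 0.05 in 1 of the 7 members in cerebellum, DCX, against 8.07% of all genes (785 higher and 1131 lower). The median slope of the 7, STMN2 near the detection limit among them, was -0.15 against 0.01 over all genes. The slope of DCX was between -1.03 and -0.54 over 17 other settings and kept its side of the threshold in each of them, with limma adjusted p-values between 0.000155 and 0.00436.

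The second test compared 2 and 4 months with 1 and 4 weeks, 4 samples against 4. Cerebellar DCX was 7.45 ± 0.52 (SD, n = 4) in the younger and 5.70 ± 0.78 in the older samples, a difference of -1.76 ± 0.36 (SE), 3.38-fold lower, with a limma adjusted p of 0.0403. Among the 7 members, DCX was the one past the threshold in cerebellum, against 2.30% of all genes. This call was lost when any of 5 of the 8 samples was left out (both 1-week samples, the 4-week male, both 4-month samples), with sex as a block (limma adjusted p = 0.0531), with the processed signal and with the value table of the series, and an offset of 50 reduced the difference to -1.05 with an adjusted p of 0.0719. The direction was the same under all 20 settings.

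In cerebral cortex DCX was 7.61 in the male and 8.03 in the female at 1 week, 7.37 and 7.32 at 4 weeks, 6.91 and 6.99 at 2 months and 6.80 and 6.79 at 4 months. The 2-year male had 6.79, close to both 4-month samples. All 4 younger samples lay above all 4 older ones. The slope was -0.35 ± 0.05 (SE, n = 8) with a limma adjusted p of 0.0237, and DCX was again the one member past the threshold, against 0.687% of all genes. The slope missed the threshold when the male or the female of 1 week, the male or the female of 4 months, or the 2-month female was left out, with values between -0.38 and -0.28. The 2-group difference was -0.71 ± 0.15 (SE, n = 4 and 4), 1.64-fold lower, with a limma adjusted p of 0.0526, and 0 of 7 members passed that test against 1.77% of all genes, while 3 members had an unadjusted p under 0.05. Over 20 other settings, the limma adjusted p of the DCX difference was between 0.0259 and 0.640, and it was past the threshold in 4 of them.

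In hypothalamus DCX was 6.92 and 7.03 at 1 week, 6.59 and 6.88 at 4 weeks, 5.86 and 5.75 at 2 months, 5.79 and 6.31 at 4 months (male first) and 6.06 in the 2-year male. The groups did not overlap, and the lowest value was at 2 months rather than at 4 months. The difference of -0.93 ± 0.15 (SE, n = 4 and 4) had an unadjusted p that ranked 16th among the genes with a negative difference, but its limma adjusted p was 0.128. In this region 0 of 23736 genes, 0%, passed the 2-group test, while 2266 had an unadjusted p under 0.05. The slope of -0.37 ± 0.09 had a limma adjusted p of 0.126, and 0 of 7 members passed the trend test against 0.270% of all genes, while 2 members, DCX and TUBB3, had an unadjusted p under 0.05. Without the 2 samples described above, the difference was -0.97 ± 0.17 (n = 6) with a limma adjusted p of 0.135.

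Over the mean of the 3 regions within each age and sex, DCX fell by 1.13 on the log2 scale (SE 0.17, n = 4 and 4), with a limma adjusted p of 0.0209. It was the 1 member of 7 past the threshold, against 3.68% of all genes. The call was lost without the 1-week males and without the 4-month males. Whether DCX changed more in one region than in another was tested within age and sex. The age change in cerebellum minus that in cerebral cortex was -1.05 ± 0.29 (SE), with an unadjusted p of 0.00446 from limma over 8 pairs and an adjusted p of 0.293. Cerebellum minus hypothalamus was -0.83 ± 0.42 (limma adjusted p = 0.420) and hypothalamus minus cerebral cortex was -0.22 ± 0.19 (adjusted p = 0.733). None of the 7 members passed any of these tests by limma, against 0.00843% of all genes for cerebellum against cortex, 0% for hypothalamus against cortex and 0% for cerebellum against hypothalamus, and 2, 0 and 2 members had an unadjusted p under 0.05, as did 2448, 2499 and 3233 of all genes. A regional difference in the DCX change was therefore not established with 8 pairs.

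DCX was measured with 2 probes that gave different levels and the same direction. In cerebellum the brighter probe went from a mean of 8.27 at 1 and 4 weeks to 6.72 at 2 and 4 months, and the dimmer one from 6.64 to 4.68. In cerebral cortex the differences were -0.80 and -0.62, and in hypothalamus -0.80 and -1.05. The dimmer probe was well above its local background in 6 of 9 cerebellum samples, so its lowest values are uncertain.

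**Figure D2:**
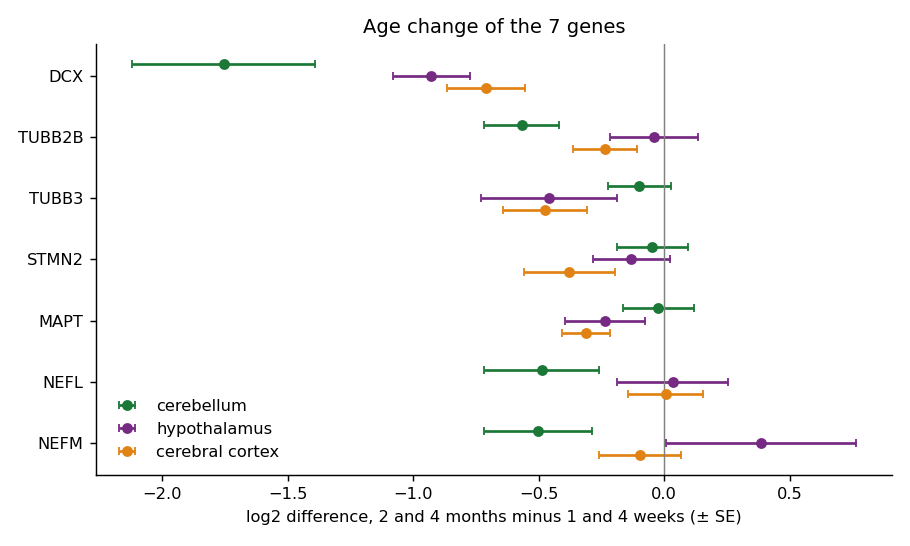
Difference in log2 intensity between 2 and 4 months (4 samples) and 1 and 4 weeks (4 samples) for the 7 genes in each brain region, with bars of 1 SE from limma. DCX lies to the left of 0 in all 3 regions, at -1.76 in cerebellum, -0.93 in hypothalamus and -0.71 in cerebral cortex, while NEFL lies at 0.03 in hypothalamus and 0.01 in cerebral cortex.

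The beta-tubulins showed smaller differences that missed the threshold. TUBB2B in cerebellum was 6.03 and 5.58 at 1 week, 5.63 and 5.52 at 4 weeks, 4.99 and 5.19 at 2 months and 5.37 and 4.93 at 4 months (male first). All 4 older samples lay below all 4 younger ones. The difference was -0.57 ± 0.15 (SE, n = 4 and 4) with a limma adjusted p of 0.0692, and the slope was -0.24 ± 0.07 with an adjusted p of 0.0558. The slope passed the threshold when dim genes were filtered out (adjusted p = 0.0445) and with a robust trend in the variance (adjusted p = 0.0470). In cerebral cortex TUBB2B differed by -0.24 ± 0.13 and in hypothalamus by -0.04 ± 0.18, and in both the groups overlapped. The 2-year male had 5.88 in cerebral cortex and 5.69 in hypothalamus, each above all younger samples of its region.

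TUBB3, the tubulin commonly used to mark neurons, had its larger differences in cerebral cortex and hypothalamus. In cerebral cortex it was 7.95 and 8.32 at 1 week, 7.66 and 7.77 at 4 weeks, 7.73 and 7.53 at 2 months, 7.37 and 7.17 at 4 months (male first) and 7.04 in the 2-year male. The 1-week samples were the highest and the 4-month samples the lowest of the 8, and 4 weeks and 2 months overlapped. The slope was -0.27 ± 0.05 (SE, n = 8) with a limma adjusted p of 0.0604, and it passed with the filter on dim genes (adjusted p = 0.0448) and with the robust trend (adjusted p = 0.0316). In hypothalamus the slope was -0.31 ± 0.10 (adjusted p = 0.215), and -0.28 ± 0.06 without the 2 samples that stood apart (adjusted p = 0.174). In cerebellum TUBB3 differed by -0.10 ± 0.13 between the groups, and 7 of the 8 samples were between 6.79 and 6.98. The 2-year male had 8.05 in hypothalamus, near the 1-week mean of 8.08, and 6.37 in cerebellum, below every younger sample. TUBB3 rests on 1 probe with 1 spot.

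STMN2 could not be followed. Its 2 probes were not well above background in any of the 79 arrays, and the values in brain were between 2.90 and 3.95, close to the detection limit. The differences of -0.05 in cerebellum, -0.13 in hypothalamus and -0.38 in cerebral cortex are therefore values of a signal near background, and a change of this gene was not detectable here.

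MAPT was bright in all 3 regions and differed little with age. In cerebral cortex it was 14.63 and 14.75 at 1 week, 14.62 and 14.56 at 4 weeks, 14.28 and 14.19 at 2 months and 14.38 and 14.46 at 4 months (male first). The 4 older samples lay below the 4 younger ones. The difference was -0.31 ± 0.10 (SE, n = 4 and 4), with a limma adjusted p of 0.125 that became 0.0411 with an offset of 50. In cerebellum MAPT was between 13.62 and 14.09 and differed by -0.02 ± 0.14, and in hypothalamus it differed by -0.23 ± 0.16. Without the 2 hypothalamus samples that stood apart, the MAPT difference there was -0.35 ± 0.11 (limma adjusted p = 0.293). No MAPT spot was flagged as saturated.

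The neurofilament chains had no common direction with age. NEFL in cerebral cortex was 6.41 ± 0.31 (SD, n = 4) in the younger and 6.42 ± 0.10 in the older samples, and in hypothalamus 7.09 ± 0.13 and 7.12 ± 0.49. In cerebellum it differed by -0.49 ± 0.23 (SE), from 5.59 ± 0.47 to 5.10 ± 0.30 (SD, n = 4 each), with overlapping groups and a limma adjusted p of 0.264. NEFM in cerebellum was 7.89 and 8.81 at 1 week, 8.54 and 9.03 at 4 weeks, 8.05 and 8.04 at 2 months, 8.27 and 7.90 at 4 months (male first) and 8.92 in the 2-year male. Its difference of -0.50 ± 0.22 had an adjusted p of 0.226. In hypothalamus the difference in NEFM was 0.39 ± 0.38, with the highest value, 11.96, in the 4-month male, and it was 0.18 ± 0.23 without the 2 samples that stood apart. The 4 NEFM probes, which the array's design lists as prone to cross-hybridization, gave differences between 0.30 and 0.48 in hypothalamus and between -0.62 and -0.39 in cerebellum.

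**Figure D3:**
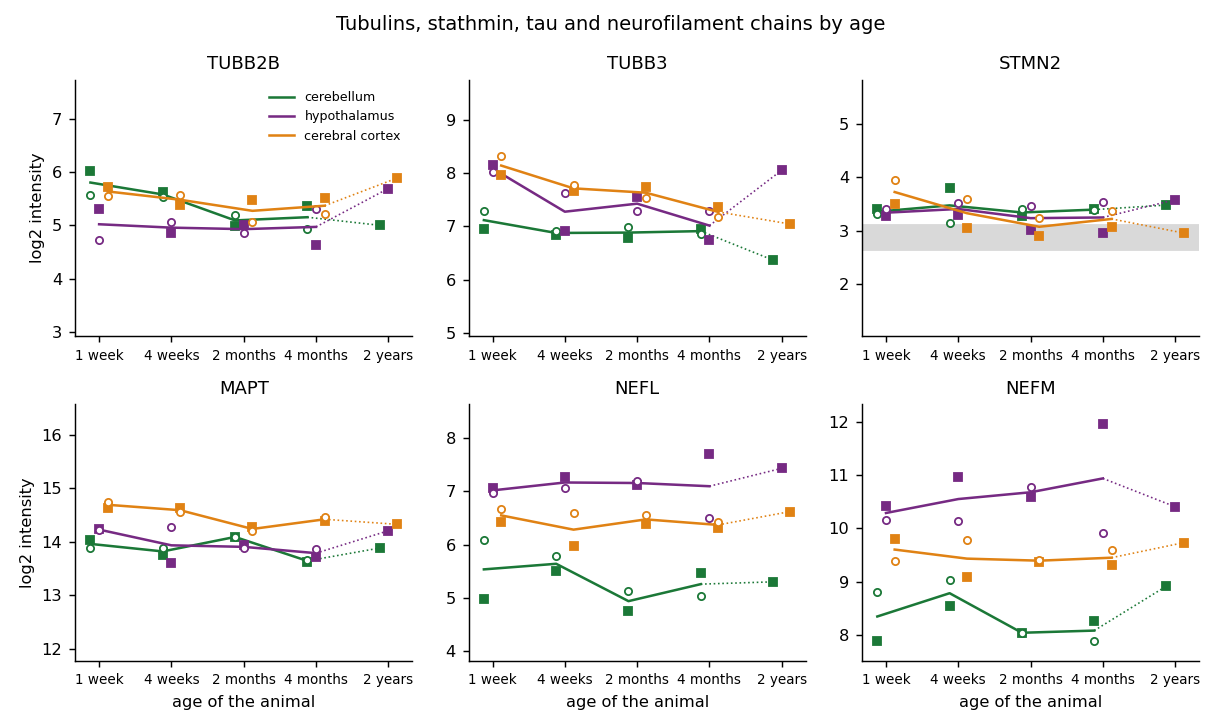
Log2 intensity of the other 6 genes in every brain sample by age (filled squares, males; open circles, females; solid lines, means up to 4 months; dotted lines, to the 2-year male), with a vertical span of equal size in each panel. The grey band in the STMN2 panel is the range of detection limits of the brain arrays. NEFM reaches 11.96 in the 4-month male hypothalamus, and TUBB3 in cerebral cortex goes from 7.95 and 8.32 at 1 week to 7.37 and 7.17 at 4 months.

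The levels of the members were also compared between regions, within the 8 pairs of age and sex up to 4 months. Of the 7 members, 5 differed between cerebellum and cerebral cortex, all of them lower in cerebellum, against 50.9% of all genes. Between hypothalamus and cerebral cortex 5 differed, 2 higher and 3 lower in hypothalamus, against 29.4% of all genes, and between cerebellum and hypothalamus 4 differed, 1 higher and 3 lower in cerebellum, against 46.1%. With backgrounds this high, the counts say little about the members as a set.

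NEFM gave the widest spread over the regions. Its level was 8.32 ± 0.43 in cerebellum, 9.47 ± 0.24 in cerebral cortex and 10.61 ± 0.64 in hypothalamus (SD, n = 8), and each region differed from each other one, by -2.30 ± 0.23 (SE) between cerebellum and hypothalamus with a limma adjusted p of 9.05e-06. NEFL had the same order, with 5.34 ± 0.45, 6.42 ± 0.21 and 7.11 ± 0.33, and each step passed the test, with a limma adjusted p of 0.00327 for hypothalamus over cerebral cortex. Up to 4 months and at 2 years, the lowest NEFM value of hypothalamus, 9.91, lay above the highest of cerebral cortex, 9.81. For NEFL the 4-month female of hypothalamus, at 6.49, lay within the cortical range and the other 8 samples above it.

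DCX had its highest level in cerebral cortex, 7.23 ± 0.44 (SD, n = 8), which was above hypothalamus, 6.39 ± 0.54, by 0.84 ± 0.10 (SE) with a limma adjusted p of 8.14e-05. Cerebellum, 6.58 ± 1.12, was lower than cerebral cortex by 0.65 ± 0.21 (adjusted p = 0.0182, lost with the value table, 0.0517, and without the 4-month males, 0.0509) and did not differ beyond its spread from hypothalamus (0.19 ± 0.24, adjusted p = 0.561). The place of cerebellum in this order varied with age: its 1-week samples, 7.58 and 8.13, lay near those of cerebral cortex, 7.61 and 8.03, and its 4-month samples, 5.31 and 4.80, were below every sample of both other regions.

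TUBB3 was lower in cerebellum, 6.95 ± 0.15 (SD, n = 8), than in cerebral cortex, 7.69 ± 0.35 (limma adjusted p = 4.10e-05), and than in hypothalamus, 7.45 ± 0.49 (adjusted p = 0.0115). The difference between hypothalamus and cerebral cortex did not pass the threshold (adjusted p = 0.126). MAPT was higher in cerebral cortex, 14.49 ± 0.19, than in cerebellum by 0.61 ± 0.10 (SE, adjusted p = 0.000275) and than in hypothalamus by 0.52 ± 0.09 (adjusted p = 0.00116). TUBB2B was lower in hypothalamus, 4.97 ± 0.25, than in cerebral cortex, 5.44 ± 0.21 (adjusted p = 0.0058), and than in cerebellum, 5.41 ± 0.36 (adjusted p = 0.0216), and cerebellum and cerebral cortex did not differ beyond their spread. The call between cerebellum and hypothalamus was lost with the value table (adjusted p = 0.0723) and without either 1-week pair, the 4-week males or the 4-month males (adjusted p from 0.0516 to 0.0584). STMN2 showed no regional difference past the threshold.

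Outside the brain the members fell into those near the detection limit and those with a clear signal. TUBB2B was above the limit in 0 of 45 samples, with values between 0.72 and 2.77, while all 27 brain samples, between 4.63 and 6.03, were above it. NEFL was above the limit in 8 of 45 samples and reached 3.21, against 4.76 to 7.69 in brain. Its 2 probes differed in this: 1 was above the limit in 29 of the 45 samples, up to 3.81, and the other in 0, up to 2.89. NEFM was above it in 4 of 45 samples, 3 of them from testis, where the highest value was 5.16, against 7.89 to 11.96 in brain. TUBB3 had a value between 3.10 and 5.47 in 44 samples, below the lowest brain sample of 6.37. Its spot in the 1-week female bone marrow was flagged, so that the bone marrow fit used 7 values for TUBB3.

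MAPT and DCX were above the detection limit in all 45 samples outside the brain. MAPT had medians of 10.94 in kidney, 10.31 in ovary, 9.99 in liver and 8.46 in testis, and of 6.54 in spleen and 6.68 in bone marrow, with no sample above 11.51, against a lowest brain sample of 13.59. Its 2 probes gave the same order of kidney, ovary, liver and testis. DCX had medians of 5.25 in kidney, 4.90 in liver, 4.54 in ovary, 4.30 in bone marrow, 3.88 in spleen and 3.73 in testis. Its 2 probes did not give the same order, since the brighter one had a median of 6.60 in kidney and 5.61 in liver and the dimmer one 3.97 and 4.19. The dimmer probe was above the limit in 37 of the 45 samples and in 3 of 9 from spleen, so detection in all 45 rests on the brighter one. The range of DCX outside the brain, 3.04 to 6.60, overlapped that of the brain, 4.51 to 8.13. Cerebellum at 2 and 4 months, 4.80 to 6.49, and hypothalamus at these ages, 5.75 to 6.31, lay within the outside range. The 2-year cerebellum and hypothalamus, 4.51 and 6.06, and the 4-week male hypothalamus, 6.59, did so too. Every sample of cerebral cortex, from 6.79 upward, lay above the outside range. The upper end of that range, 6.60, is the 1-week testis alone, and no other sample outside the brain exceeded 5.86, in kidney. The 2-month cerebellum samples and the hypothalamus of the 4-week male, the 4-month female and the 2-year male lay above 5.86.

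**Figure D4:**
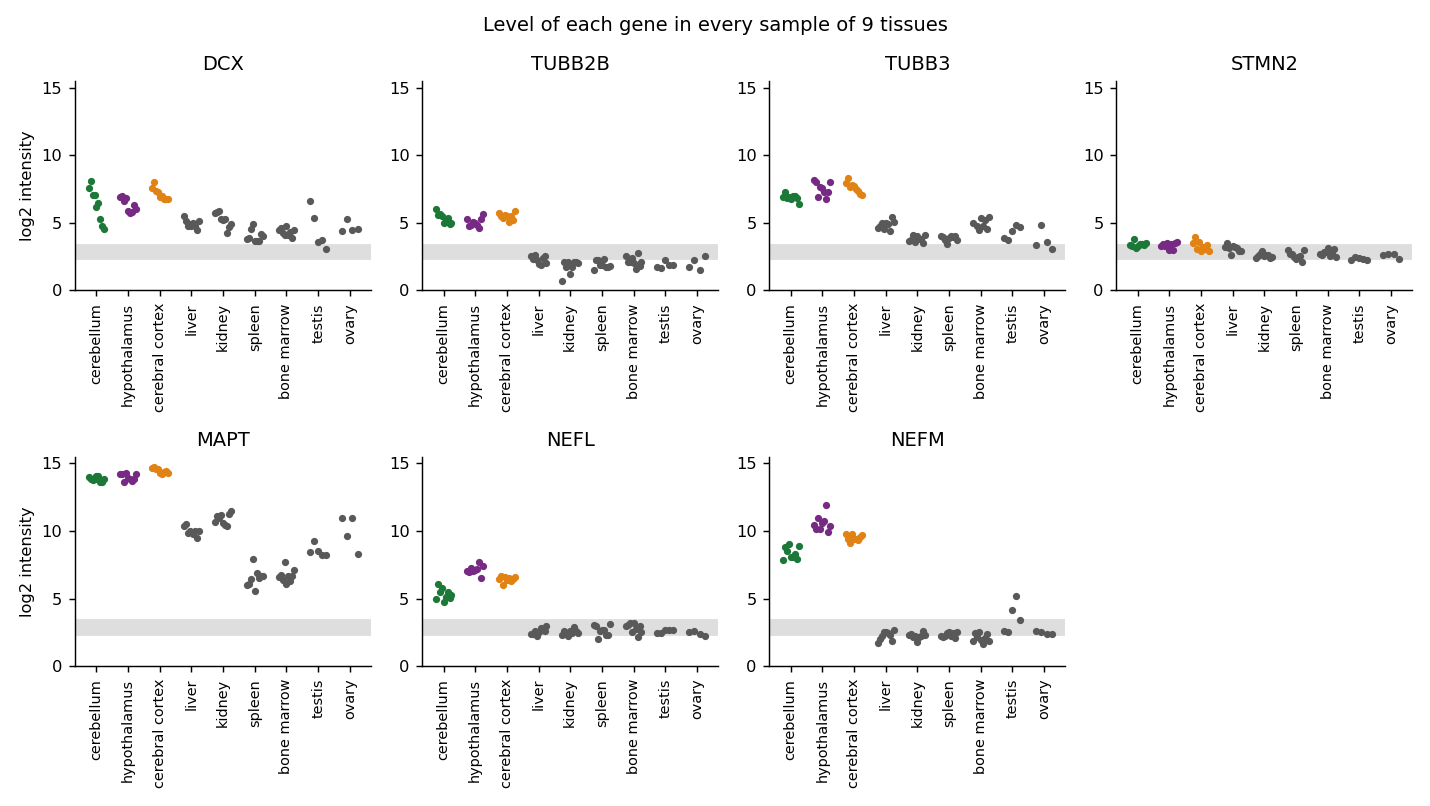
Log2 intensity of the 7 genes in every sample of 9 tissues, in order of age within a tissue (9 points per tissue, 5 in testis, 4 in ovary), with the range of detection limits over all samples as a grey band. TUBB2B, NEFL and NEFM stand above the band in brain and mostly within or below it elsewhere, whereas MAPT and DCX stay above their arrays' limits in every sample.

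In testis DCX was 6.60 in the 1-week, 5.34 in the 4-week, 3.58 in the 2-month, 3.73 in the 4-month and 3.04 in the 2-year male, with 1 sample per age and no replicate check. In kidney it was 5.76 and 5.81 at 1 week (male first), 5.86 and 5.32 at 4 weeks, 5.18 and 5.25 at 2 months and 4.27 and 4.71 at 4 months. The kidney groups did not overlap. The difference of -0.83 ± 0.23 (SE, n = 4 and 4) had a limma adjusted p of 0.0503, and it was past the threshold in 6 of 19 other settings. MAPT in kidney passed without the 4-month female (-0.51, adjusted p = 0.0422). No member passed the test outside the brain by limma: 0 of 7 in kidney, where 8.45% of all genes passed and 1 member had an unadjusted p under 0.05, and 0 of 7 in liver (1.82% of all genes), spleen (3.11%) and bone marrow (0.733%), where no member had an unadjusted p under 0.05. These shares depended strongly on single samples.

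STMN1 and GAP43, named through the RefSeq table of pig transcripts, are given for comparison. STMN1 in cerebellum was 13.68 and 13.70 at 1 week, 13.21 and 12.93 at 4 weeks, 12.97 and 13.12 at 2 months, 12.32 and 12.19 at 4 months (male first) and 12.36 in the 2-year male. Its slope was -0.43 ± 0.06 (SE, n = 8) with a limma adjusted p of 0.00384, and its 2-group difference was -0.73 ± 0.24 (adjusted p = 0.126). In cerebral cortex the difference of STMN1 was -0.31 ± 0.19 and in hypothalamus -0.35 ± 0.28, neither past the threshold. Without the 2 hypothalamus samples that stood apart, the latter was -0.48 ± 0.16 (limma adjusted p = 0.309). In kidney STMN1 fell by 2.07 on the log2 scale (SE 0.26, limma adjusted p = 0.00513). In liver it fell by 1.93 (SE 0.39, limma adjusted p = 0.0420), although the liver call was lost with sex as a block, median scaling, an offset of 50 or the value table, and without any of 6 of the 8 samples (adjusted p up to 0.130). GAP43 differed by -0.25 ± 0.13 in cerebellum, -0.39 ± 0.44 in hypothalamus and -0.38 ± 0.18 in cerebral cortex, and in none of them past the threshold. Without the same 2 hypothalamus samples, its difference there was -0.52 ± 0.16 (limma adjusted p = 0.301).

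The genes whose profile was most like that of DCX were sought among 12871 genes with a symbol over the 24 brain samples up to 4 months, after subtracting the mean of each region. The 5 with the highest Pearson correlation were HMGB3, a chromatin protein (0.96), GPR56, an adhesion receptor (0.95), CCNB2, a cyclin of mitosis (0.93), MEX3A, an RNA-binding protein (0.93), and ASF1B, a histone chaperone (0.92). In cerebellum their log2 differences between the age groups were between -1.66 and -1.22, a fall built into their choice by likeness to DCX. The 5 with the lowest correlation were RNF214 (-0.87), PHF1 (-0.85), ACCN3 (-0.85), HHIPL2 (-0.85) and PHF15 (-0.85). These values are descriptions: the points cover the same 8 combinations of age and sex in each region, and samples of one combination may share an animal. The correlation could differ within a region: in hypothalamus alone it was 0.86 for HMGB3 and -0.46 for HHIPL2. Among the members, TUBB2B had a correlation of 0.61 with DCX, MAPT 0.54 and TUBB3 0.49, and NEFM 0.05. The same search with NEFH could not be done.

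Among genes of neurite growth and immature neurons, those past the test fell. Of 27 such genes on the array, 8 fell and 0 rose along the age trend in cerebellum, 1 fell in hypothalamus and 2 in cerebral cortex, where 8.07%, 0.270% and 0.687% of all genes passed in either direction, with median slopes of -0.10, -0.09 and -0.04 against 0.01 over all genes in cerebellum and values nearer to 0 in the other regions. In the 2-group test ROBO1, an axon guidance receptor, fell in cerebellum from 7.75 ± 0.29 to 6.63 ± 0.16 (SD, n = 4 each, limma adjusted p = 0.0149). In cerebral cortex SOX4, a transcription factor of immature neurons, fell by 0.79 (adjusted p = 0.0171), MARCKS, an actin-binding membrane protein, by 0.62 (adjusted p = 0.0433) and MEX3A by 0.85 (adjusted p = 0.0462).

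Among cell cycle genes, those past the test had the direction of DCX. Of 14 proliferation genes measured, 6 fell and 0 rose along the trend in cerebellum, and 2 fell in each of the other regions, beside 8.07% of all genes in cerebellum, 0.270% in hypothalamus and 0.687% in cerebral cortex. TOP2A, the topoisomerase of dividing cells, fell in cerebral cortex from 6.41 ± 0.33 to 4.51 ± 0.57 (SD, n = 4 each, limma adjusted p = 0.019), and CCNB2 fell 3.15-fold in cerebellum (adjusted p = 0.0477). The log2 of the summed level of the list was 9.20 to 10.31 at 1 and 4 weeks and 8.65 to 9.19 at 2 and 4 months in cerebellum, 9.01 to 9.32 and 8.45 to 8.75 in hypothalamus, and 8.61 to 9.10 and 8.10 to 8.38 in cerebral cortex. By the mean log2 level of the list, the groups overlapped in cerebellum, with 4.32 to 4.90 and 3.88 to 4.34, and not in the other regions. Their part in the DCX result was not tested.

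Other tubulins, microtubule-associated proteins, motors and filaments were read against the shares of all genes past the tests, 2.30% in cerebellum and 1.77% in cerebral cortex for the 2 groups and 8.07% and 0.687% for the trend. None of the 16 other tubulins and tubulin cofactors measured passed either limma test in any region. Of 24 other microtubule-associated genes, MAPRE3, a protein of microtubule ends, rose in cerebral cortex from 10.39 ± 0.09 to 11.23 ± 0.16 (SD, n = 4 each, adjusted p = 0.0171), and along the cerebellar trend 1 rose and 3 fell. In the 2-year male cortex MAPRE3 was 10.54, near the younger mean. Of 18 motor genes, the dynein light chain DYNLL1 fell by 0.73 in cerebellum (adjusted p = 0.0435) and the kinesin KIF21B by 0.78 in cerebral cortex (adjusted p = 0.0456), and along the trend 2 fell in cerebellum and 1 in cerebral cortex. Among 10 other intermediate filament genes, LMNB1, a nuclear lamin, fell by 0.71 in cerebral cortex (adjusted p = 0.0171) and GFAP, the filament of astrocytes, rose by 1.04 (adjusted p = 0.0443), while 2 of the 10 fell along the cerebellar trend. GFAP was 12.41 in the 2-year male cortex, near the older mean of 12.53. Of 12 kinases and phosphatases of tau, 1 rose and 1 fell along the cerebellar trend.

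Of 34 synaptic genes measured, 5 rose and 2 fell along the trend in cerebellum, where 8.07% of all genes passed (785 higher and 1131 lower), and none passed by limma in the other regions. In the 2-group test NRGN, neurogranin, rose from 5.95 ± 0.31 to 6.98 ± 0.18 (SD, n = 4 each, limma adjusted p = 0.0212), the scaffold gene SHANK2 fell by 0.65 (adjusted p = 0.0285) and the glutamate receptor subunit GRIN2B fell by 0.76 (adjusted p = 0.0483) to a mean of 2.88, near the detection limit. NRGN was 6.28 in the 2-year male cerebellum, between the means of both age groups. Of 13 cerebellar neuron markers, 2 rose and 2 fell in the 2-group test in cerebellum, where 2.30% of all genes passed. The granule cell genes CBLN3 and GABRA6 were higher by 0.82 (limma adjusted p = 0.0357) and 0.79 (adjusted p = 0.0374). In the 2-year male they were 10.29 and 9.71, near the older means of 10.39 and 9.87. The Purkinje cell gene CA8 fell by 0.61 (adjusted p = 0.0311) and the transcription factor gene ZIC4 by 0.98 (adjusted p = 0.0348). ZIC4 did not mark cerebellum here, since its median was higher in hypothalamus and in cerebral cortex. In the 2-year male cerebellum ZIC4 was 6.08, above the mean of 5.86 at 1 and 4 weeks.

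Markers of other cells were set beside the DCX values. In cerebellum the mean log2 level of 13 cerebellar neuron markers was 9.08 to 9.25 in the younger and 9.01 to 9.20 in the older samples, and that of 4 pan-neuronal markers 8.37 to 9.20 and 8.78 to 9.12. ELAVL3, among these 4, was above the detection limit in 1 of 9 cerebellum samples, the 4-week female that also had the mean of 9.20. The mean of 8 astrocyte markers was 9.46 to 9.65 and 9.48 to 9.61, although AQP4 fell by 1.02 (limma adjusted p = 0.037). The log2 of their summed level was higher in the older samples without overlap, with 15.73 to 15.88 and 15.92 to 16.26. For the other lists given here in cerebellum, the sums overlapped or not as the means did. The 12 myelin markers were at 6.37 to 6.42 and 6.15 to 6.30, the 6 endothelial ones at 7.14 to 7.32 and 7.01 to 7.06, with CDH5 lower by 0.63 (adjusted p = 0.0466), and the 9 microglial ones at 6.41 to 6.69 and 6.50 to 6.58. In cerebral cortex the microglial mean was 7.06 to 7.64 in the younger and 7.52 to 8.05 in the older samples. In hypothalamus it was 7.71 to 8.31 and 7.99 to 8.53. There 0 of the 9 genes passed the test, beside 0% of all genes. Their median difference was 0.29 against 0.0006 over all genes. In cerebral cortex the complement gene C1QA rose by 0.85 (limma adjusted p = 0.0413), while the 2-year male had 6.73, below the younger mean of 6.94. Of 9 cortical neuron markers, 1 passed the 2-group test in cerebral cortex, where 1.77% of all genes passed. This gene, RASGRF2, rose by 1.08 (limma adjusted p = 0.0339), from a mean of 5.30 to 6.38, and was 5.67 in the 2-year male. The median difference of the 9 went the other way, at -0.22 against -0.01 over all genes. The part of these cells in the DCX result was not tested.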

How the data were processed

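Gene expression was measured in 80 one-color custom Agilent arrays, read with Agilent Feature Extraction 11.5.1.1 per the labels. The authors deposited the raw median intensity and a processed intensity of each spot, not normalized between arrays, and a table of quantile-normalized log2 values, which served as an alternative. From the median intensity, background was corrected with normexp (offset 0) in limma 3.58.1 under R 4.3.3, flagged spots were left out, gene and negative control spots were quantile normalized, and log2 values were averaged over spots, then probes. The 8 technical repeats of the 2-year male kidney were averaged and renal pelvis was left out, giving 72 samples. The median gene intensity was 27 to 89 per array, that of the 308 negative controls 17 to 25, and 103 to 733 spots per array were flagged. The median SD of a gene over the repeats was 0.115 log2 units.

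Tests were made with limma across all 23736 genes, with Benjamini-Hochberg adjustment and a threshold of 0.05, and at most 1 missing value per gene and fit. Regions were compared within age and sex, since the numbering of the samples pairs no animals. Other steps used Python 3.11.15 with numpy 2.4.6 and pandas 2.3.3. The fits were tested on simulated data. The members and lists were chosen with earlier results of these data known. Named genes are all members found, up to 4 genes per list and region past the threshold of the 2-group test by smallest p, and the 5 genes most and least correlated with DCX. The 2 hypothalamus samples left out together were chosen after seeing the data. List genes without a symbol in the files were named through the RefSeq table. The values of 1 further marker gene, counted in its list, are not reported here.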

Additional observations from a re-analysis of the deposited data

Results flagged for a closer look

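MAPT in hypothalamus was 13.59 in the 4-week male, while the other 3 samples of 1 and 4 weeks were between 14.22 and 14.27. The gap to the next sample was large for the range of this group of 4. This was the only such value among 42 groups of 4 brain samples examined over the 7 members, and chance alone marks about 1 group in 20.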

How the results depend on the processing

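Of 314 counts over the comparisons and settings, 279 were the same and 35 were not, and no difference past the threshold changed sign. The DCX difference in bone marrow, not past the threshold, was between -0.28 and 0.01 and below 0 in 17 of 19 settings. The number of members past the threshold in the cerebellum age change, 1 (DCX), became 0 with the processed signal, an offset of 50, the value table or sex as a replicate block, and ranged from 0 to 1 when each sample was left out. In cerebral cortex it went from 0 to 2 with the offset of 50 (DCX and MAPT) and to 1 with the filter on dim genes, the robust trend or the 2-year sample added, and stayed 0 in the other settings. In kidney it went from 0 to 1 with the processed signal, median scaling, the filter, the robust trend, the 2-year sample or the fit over 7 tissues, and ranged from 0 to 1 with samples left out. The cerebellum trend count went from 1 to 2 with the filter and the robust trend, and from 1 to 2 over the samples left out. The cortex trend count went from 1 to 2 with the same settings, and from 0 to 1 over the samples left out. For the mean of the regions it was 0 to 1. At the 99th percentile of the controls, STMN2 was above the limit in 1 rather than 14 and NEFL in 2 rather than 8 samples outside the brain. The DCX level difference between cerebellum and cerebral cortex lost its call with the value table (adjusted p = 0.0517 by limma) and without the 4-month males (0.0509), and that of TUBB2B between cerebellum and hypothalamus with the value table (0.0723) and in 4 of 8 fits with a pair left out. Sex as a block changed no other member call, and regions treated without pairing gave the same counts. Counts over all genes moved further: in the cerebellum age change from 546 to 311 with the processed signal, 242 with the value table, 242 with slide in the fit and 17 to 931 with samples left out, in the cortex from 421 to 1113 with the offset, 700 with the value table, 671 with the filter, 853 with the robust trend, 194 with median scaling, 188 with the sex block, 58 in the fit over 7 tissues, 6 with slide in it and 9 to 414 with samples left out. In hypothalamus the count was 0, and 0 to 18 with samples left out, 4 without both samples that stood apart, 20 with the 2-year sample and 40 in the fit over 7 tissues. The trend counts were 551 to 2190 in cerebellum, 7 to 70 in hypothalamus and 26 to 105 in cerebral cortex with samples left out, and that of the mean of the regions 37 to 1087. From 64, the hypothalamus trend count went to 160 with the offset, 108 with the filter, 120 with the robust trend, 32 with median scaling and 30 with the sex block. From 163, that of cerebral cortex went to 249 with the offset, 318 with the robust trend and 93 with the sex block, and from 874, that of the mean of the regions to 1519 with the offset. Outside the brain, the age change counts went with samples left out from 431 to between 41 and 536 in liver, from 2005 to between 374 and 4513 in kidney, from 738 to between 76 and 1472 in spleen and from 174 to between 16 and 443 in bone marrow, and in the fit over 7 tissues to 1935, 3565, 4378 and 1805. The causes were not tested. Values near the negative controls, as for STMN2, limit what can be read from dim probes.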
